A study of Homo sapiens with 12 samples.

Results

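The genes described here were the ABC (ATP-binding cassette) transporter genes of the deposited table. They were chosen by name alone, as protein-coding rows whose symbol is ABC, a letter from A to G and a number. This gave 45 genes of the 19817 protein-coding rows and of 58302 rows in all. The rule used no measured value, but earlier results of these data were known when the members were chosen. TAP1, TAP2 and CFTR belong to the same superfamily under other names and were kept in a separate list of partner genes.

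RNA-seq was available for 3 established human prostate cell lines, with 4 libraries of each and 12 libraries in all. BPH-1 is a benign prostate epithelial line immortalised with the SV40 large T antigen, PC3 was derived from a bone metastasis of prostate cancer and DU145 from a brain metastasis, and PC3 and DU145 grow without androgen. The labels gave all 3 lines the genotype WT and named no treatment, and all were kept in DMEM with fetal bovine serum. Each line stands for 1 donor, so a difference between 2 lines holds everything that separates those lines. Nothing in the labels says that the 4 libraries of a line came from separate cultures, so the p-values measure only the spread between these libraries, which may be technical.

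ABC proteins bind and hydrolyse ATP on paired nucleotide-binding domains and, in most of the family, use it to move a substrate across a membrane. Subfamilies B, C and G hold the pumps that export drugs and their conjugates, subfamily A moves sterols and phospholipids, subfamily D brings fatty acids into peroxisomes, and subfamilies E and F have no membrane spans and act in translation. In prostate cancer the family is best known for the exporters ABCB1, ABCC1 and ABCG2, whose levels bear on the response of cells to cytotoxic drugs.

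Some members differed by a large factor between the lines. The surfactant lipid transporter ABCA3 and the conjugate exporter ABCC3 were far higher in both PC3 and DU145 than in BPH-1. The porphyrin-linked half-transporter ABCB6 and the lipid transporter ABCA2 were highest in DU145. The exporter ABCG2 gave no read in any PC3 library, and the keratinocyte lipid transporter ABCA12 gave none in PC3 and a single read in DU145. ABCE1 and ABCD3, whose transcripts are AT-rich, were lower in both cancer lines, and their levels also followed a GC trend that differed between libraries. With that trend removed ABCD3 was no longer called lower in PC3.

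Depth, found from the steps between low values, was between 12950664 and 16309559 reads in a library. The values are FPKM, fragments scaled to the exon length of the gene and to the depth of the library, so that levels of different genes can be compared per length. The table names no unit, and FPKM was inferred from those steps. The libraries did not treat AT-rich and GC-rich genes alike. The GC tilt of a library is the median log2 level of genes under 45% GC less that of genes over 55% GC, each gene taken relative to its level over the 12 libraries. It was between 1.22 and 1.37 in the 4 BPH-1 libraries. Within DU145 it was -1.42, 0.39, -2.17 and 0.087 in replicates 1 to 4, and within PC3 it was 0.011, -0.087, -0.63 and -1.46. No PC3 or DU145 library reached the tilt of BPH-1, so the tilt and the line cannot be told apart in the comparisons with BPH-1. Beside the differences as deposited, the text therefore names every call of a member reported that was lost or gained once the fitted GC trend of each library was removed, and for PC3 against DU145 several are also given from the libraries closest in tilt, DU145 replicates 2 and 4 and PC3 replicates 1 and 2, a choice made after the tilt was seen.

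All 3 lines carried the epithelial keratins KRT8 and KRT18. EPCAM lay between 57.7 and 63.2 FPKM in BPH-1 and between 6.92 and 11.1 in PC3, and reached at most 0.573 in DU145, while CDH1 reached at most 1.42 FPKM in PC3 and 0.297 in DU145. Of the 6 epithelial markers, 6 had a mean over 1 FPKM in BPH-1, 3 in DU145 and 4 in PC3. KLK3, the prostate-specific antigen gene, was at 0 in all 12 libraries. For markers of other cells, the summed leukocyte list ran from 4.89 to 8.19 FPKM in BPH-1, from 5.06 to 10.1 in DU145 and from 6.95 to 13.7 in PC3, mostly as CD68, with CD3E at 0 in all 12 libraries and PTPRC at 0 in PC3. The fibroblast list ran from 1.71 to 3.4, 0.387 to 1.25 and 3.08 to 3.94 FPKM in the same order, mostly as COL1A1, with DCN at 0 in BPH-1 and PC3. The endothelial list ran from 0.231 to 0.615, 0.0548 to 0.35 and 1.19 to 2.28 FPKM, in PC3 as PECAM1, and the smooth muscle list reached at most 0.568 FPKM. The part of these genes in the results was not tested. In such bulk libraries fewer cells of a type and less RNA per cell cannot be told apart.

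The family held a few abundant members and many that were scarcely read. Of the 45 members, 29 had more than 3 reads over the 4 libraries in each of the 3 lines, 15 had a mean over 1 FPKM in each line and 7 had at most 3 reads in every line. In BPH-1 and DU145 the 3 most abundant members supplied over 50% of the family's summed FPKM, namely ABCF1, ABCE1 and ABCF2 with 53.9% in BPH-1 and ABCF2, ABCF1 and ABCC1 with 56.7% in DU145. The summed FPKM was 164.7 ± 8.48 (SD, n = 4) in BPH-1, 201.5 ± 24.3 in DU145 and 190.9 ± 16.7 in PC3. Every library of both cancer lines lay above every BPH-1 library, with an exact two-sided permutation p = 0.0286 for each, the smallest that 4 against 4 libraries allow (adjusted p = 0.0429 over 6 permutation tests), and PC3 and DU145 overlapped (exact permutation p = 0.486). As a share of all FPKM the members took 0.0667% in BPH-1, 0.0686% in DU145 and 0.0639% in PC3. On that scale PC3 was no longer above BPH-1, and DU145 was only slightly above it. The permutation test was not run on shares. Summed over all genes, FPKM ran from 243707 to 249733 in the BPH-1 libraries, 289756 to 302456 in DU145 and 293492 to 306698 in PC3.

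**Figure D1:**
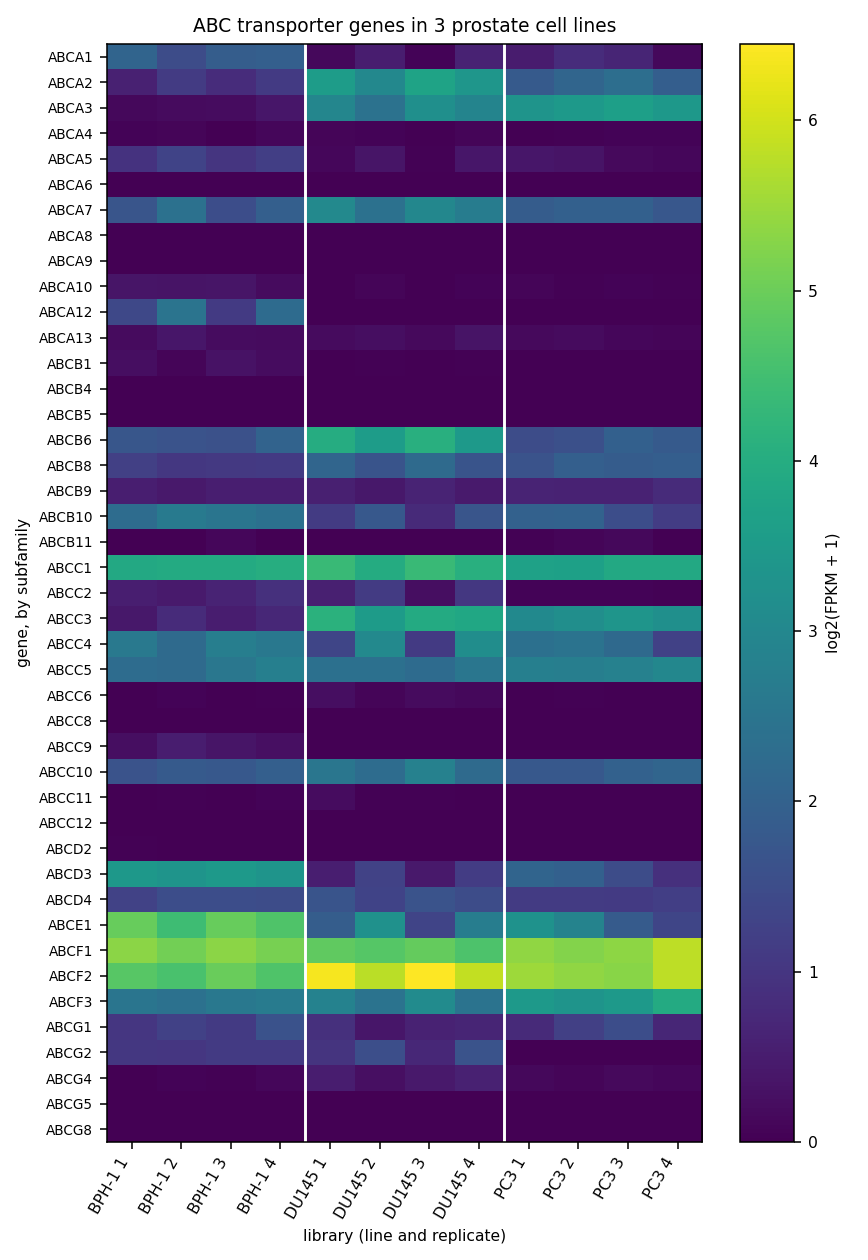
Level of 43 of the 45 ABC transporter genes (rows, by subfamily) in the 12 libraries (columns, by line and replicate), as log2(FPKM + 1) on the colour scale, dark for 0. ABCF1 and ABCF2 are bright in all 12 libraries, and ABCA3 and ABCC3 are dark in BPH-1 only.

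Each pair of lines was compared on the log2(FPKM + 1) scale, which understates the change of low genes. A gene is said to have risen or fallen at an adjusted p under 0.05, by limma with Benjamini-Hochberg adjustment over all genes tested. Of the 45 members, 32 had enough reads to be tested in at least 1 comparison and 27 in all of them. Between PC3 and BPH-1, 20 of 30 members tested differed, 8 higher and 12 lower in PC3. Of all genes tested 67.6% differed there, 27.2% higher and 40.5% lower. Between DU145 and BPH-1, 22 of 32 members differed, 10 higher and 12 lower in DU145, beside 62.6% of all genes, 30.3% higher and 32.3% lower. Between PC3 and DU145, 18 of 28 differed, 6 higher and 12 lower in PC3, beside 48.2% of all genes, 20% higher and 28.3% lower. The share of members called lay near that of all genes in both comparisons with BPH-1 and above it between the cancer lines, a difference that was not tested. Libraries of the compared lines did not overlap for 22, 22 and 16 members tested, and for 64.5%, 59.4% and 46.5% of all genes tested. The median log2 difference of the members tested was -0.14, -0.0037 and -0.078 in this order, against -0.13, -0.026 and -0.055 over all genes tested. The comparisons with BPH-1 share its 4 libraries.

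Some members entered a comparison through the reads of 1 line alone, since no library of the other line reached the minimum of 10 reads, and such a member had to differ to be tested. These were ABCA12, ABCC2, ABCC9 and ABCG2 in PC3 against BPH-1, ABCA12, ABCB1, ABCC6 and ABCC9 in DU145 against BPH-1, and ABCC2, ABCC6 and ABCG2 in PC3 against DU145, and all of them are among the members called. Close to this was ABCG4, with 31 to 61 reads per DU145 library, against 1 to 12 in BPH-1 and 8 to 14 in PC3. ABCA10 had 27 to 58 reads per BPH-1 library, against 4 to 11 in PC3 and 0 to 12 in DU145. Where they were called, both met the filter through the line where they were high.

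With the GC trend removed, the members split 5 higher and 15 lower in PC3 against BPH-1, beside 22.2% higher and 44% lower of all genes tested. In DU145 against BPH-1 they split 8 and 17, beside 25% and 37% of all genes, and in PC3 against DU145 9 and 11, beside 25.4% and 31.5%. Members called lower went from 12 to 15 of 30 tested in PC3 and from 12 to 17 of 32 tested in DU145 against BPH-1. Of all genes tested, the share called lower went from 40.5% to 44% and from 32.3% to 37%. The direction was the same, and whether the size of the shift differed was not tested. The members called lower as deposited had a median GC content of 42.3% in PC3 against BPH-1 and 43% in DU145 against BPH-1, and those called higher 58.3% and 58.5%. Upper-quartile scaling split PC3 against DU145 as 7 higher and 9 lower (21.7% and 26.5% of all genes), and median-of-ratios scaling as 7 and 8 (21.8% and 24.4%).

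**Figure D2:**
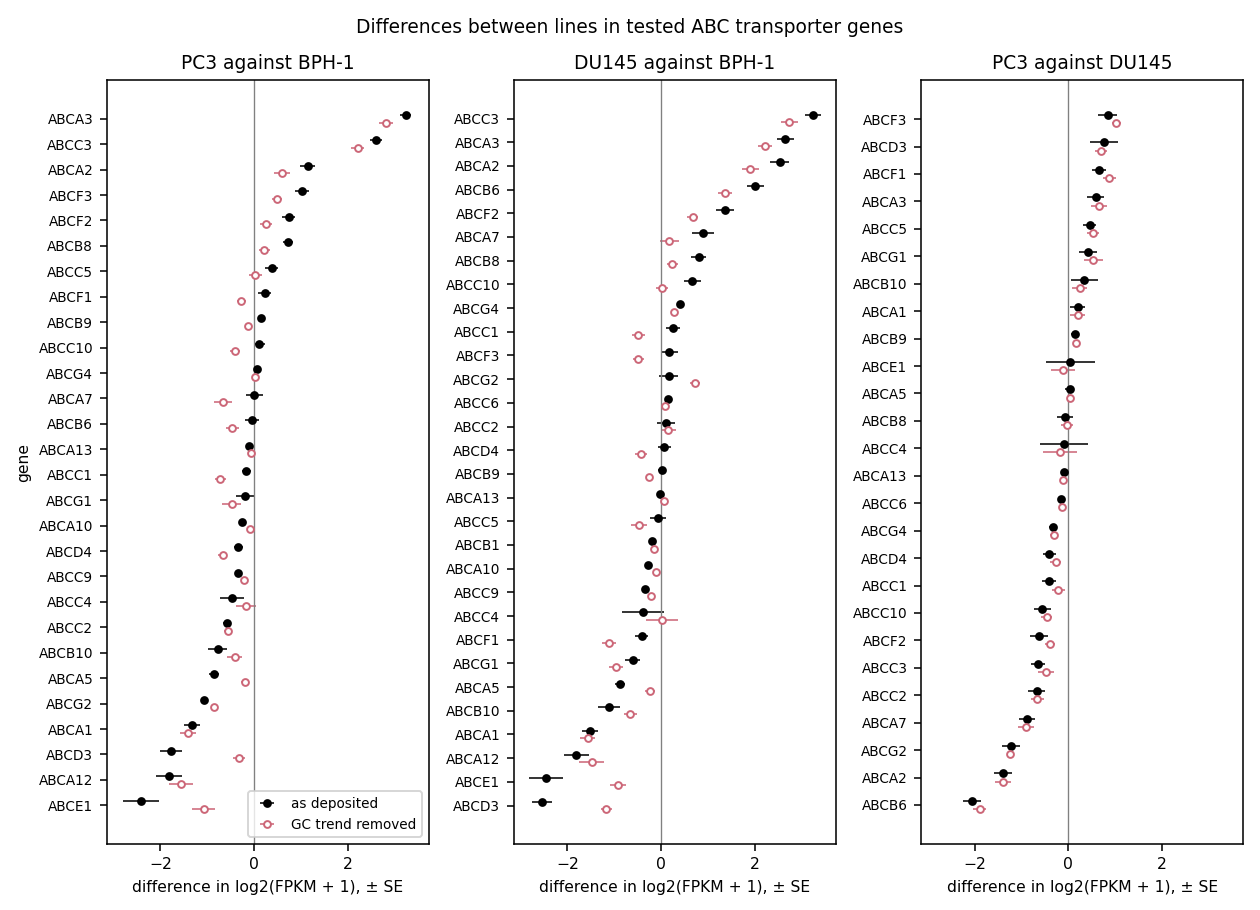
Difference in log2(FPKM + 1), with its standard error as a bar, for the ABC transporter genes tested in the 3 comparisons (panels), of the 43 drawn, as deposited (black) and with the GC trend of each library removed (open). ABCA3 and ABCC3 stay at the top of PC3 against BPH-1 in both, ABCE1 and ABCD3 move towards 0, and most values of PC3 against DU145 hardly move.

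The drug and conjugate exporters were the 9 members ABCB1, ABCC1 to ABCC5, ABCC10, ABCC11 and ABCG2. In PC3 against BPH-1, of 7 tested, ABCC3 and ABCC5 rose, and ABCC2 and ABCG2, which entered through BPH-1 alone, were called lower. In DU145 against BPH-1, of 8 tested, ABCC3 and ABCC10 rose, and ABCB1, which entered through BPH-1 alone, was called lower. Of all genes tested 67.6% and 62.6% differed in these comparisons. Between the cancer lines, of 7 tested, ABCC5 was higher in PC3 and ABCC1, ABCC2, ABCC3, ABCC10 and ABCG2 were higher in DU145, beside 48.2% of all genes called. ABCC2 and ABCG2 entered there through DU145 alone.

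ABCC3, which exports bile acid and glucuronide conjugates, lies on chromosome 17 (50634777 to 50692252, plus strand, GRCh38). Its FPKM was 0.342, 0.723, 0.419 and 0.659 in the 4 BPH-1 libraries, 16.4, 10.6, 14.2 and 13.3 in DU145 and 7.31, 8.18, 9.3 and 8.29 in PC3. The 3 lines did not overlap, with DU145 highest. The mean was 15.4-fold higher in PC3 than in BPH-1 (log2 difference 2.6 ± 0.13 SE, adjusted p = 2.42e-07) and 25.5-fold higher in DU145 (3.25 ± 0.18, adjusted p = 5.38e-07). Removal of the GC trend left 2.21 ± 0.15 and 2.73 ± 0.18. PC3 lay below DU145 (difference -0.65 ± 0.16, adjusted p = 0.0073), also with the GC trend removed (-0.47, adjusted p = 0.0441) and in the libraries closest in tilt (-0.56, adjusted p = 0.0269).

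ABCG2, the breast cancer resistance protein that exports many drugs and urate, lies on chromosome 4 (88090264 to 88231322, minus strand). Its FPKM was 1.06, 1.05, 1.13 and 1.13 in BPH-1, 0.976, 1.95, 0.638 and 2.14 in DU145 and 0 in all 4 PC3 libraries. PC3 did not overlap either line, whereas DU145 spanned BPH-1 on both sides. With 486 reads over the 4 BPH-1 libraries, 621 over those of DU145 and none over PC3, the level was at least 140.2-fold lower in PC3 than in BPH-1 and at least 180.4-fold lower than in DU145, taking 3 reads over the line as the limit that a count of 0 allows. Such limits cover counting error only. PC3 was tested against each line only because that other line was high, so no p is given for PC3. DU145 against BPH-1 gave 0.16 ± 0.20 (adjusted p = 0.502) as deposited, 0.72 ± 0.10 (adjusted p = 0.000255) with the GC trend removed, and 0.54 (adjusted p = 0.00284) without DU145 replicates 1 and 3, the libraries with the most negative tilt of that line.

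ABCB1, the P-glycoprotein that pumps taxanes and many other drugs, was low in BPH-1 and lower in the cancer lines. Its FPKM was 0.177, 0.0663, 0.254 and 0.162 in BPH-1, 0, 0.0248, 0 and 0.0302 in DU145 and 0 in every PC3 library. BPH-1 did not overlap either line. The 101 reads over BPH-1 against none over PC3 give a level at least 29.1-fold lower in PC3 (exact two-sided permutation p = 0.0286, adjusted p = 0.0429 over the 6 permutation tests). In DU145 the mean was 12-fold lower than in BPH-1. ABCB1 had 10 to 39 reads in each library of BPH-1 and 0 to 4 in each of DU145, so this pair of lines was tested only because BPH-1 was high, and no p is given for DU145.

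ABCC1, an exporter of glutathione conjugates and many drugs, was the most abundant exporter per length in each of the 3 lines. Its FPKM was 13.9, 14.3, 14.4 and 15.2 in BPH-1, 19.5, 14.8, 19.7 and 15.8 in DU145 and 11.9, 11.7, 13.8 and 13.8 in PC3. Neither cancer line passed the test against BPH-1 as deposited (PC3 -0.17 ± 0.10, adjusted p = 0.16, and DU145 0.25 ± 0.15, adjusted p = 0.174). Both were lower once the GC trend was removed, at -0.72 ± 0.11 (adjusted p = 0.000289) and -0.49 ± 0.14 (adjusted p = 0.0131), so the sign in DU145 turned. PC3 was below DU145 (-0.41 ± 0.14, adjusted p = 0.0379). That call was lost with the GC trend removed (-0.21, adjusted p = 0.235) and under upper-quartile and median-of-ratios scaling. It was also lost on leaving out DU145 replicate 1 or 3 or any single PC3 library (adjusted p up to 0.106). It held in the libraries closest in tilt (-0.35, adjusted p = 0.032) but not without DU145 replicates 1 and 3 (-0.24, adjusted p = 0.142).

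ABCC2, the canalicular exporter of conjugates, was at 0.464, 0.371, 0.557 and 0.85 FPKM in BPH-1, at 0.478, 1.18, 0.174 and 1.07 in DU145 and at 0.046, 0.0435, 0.0537 and 0.0345 in PC3. All PC3 libraries lay below all others. The mean was 12.6-fold lower in PC3 than in BPH-1 (-0.57 ± 0.08) and 16.3-fold lower than in DU145 (-0.68 ± 0.18). With the GC trend removed these differences were -0.55 and -0.67. ABCC2 had 3 to 5 reads in each PC3 library. Both pairs were thus tested only because the other line was high, and no p is given for PC3. DU145 replicates 2 and 4 lay above every BPH-1 library. DU145 against BPH-1 gave 0.11 ± 0.19 (adjusted p = 0.637) with all libraries and 0.45 (adjusted p = 0.0203) without DU145 replicates 1 and 3.

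ABCC4, which exports cyclic nucleotides and prostaglandins, split the DU145 libraries. Its FPKM was 5.06, 3.69, 5.77 and 4.98 in BPH-1, 1.56, 7.22, 1.12 and 7.9 in DU145 and 4.22, 4.48, 3.63 and 1.38 in PC3. DU145 replicates 2 and 4 lay above every BPH-1 library, and replicates 1 and 3 lay below every one. The difference from BPH-1 was -0.38 ± 0.45 with all 4 DU145 libraries (adjusted p = 0.481), 0.015 with the GC trend removed (adjusted p = 0.972) and 0.55 without replicates 1 and 3 (adjusted p = 0.022). PC3 against DU145 was -0.084 ± 0.51 (adjusted p = 0.909), and -0.68 in the libraries closest in tilt (adjusted p = 0.00678).

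ABCC5 and ABCC10, which carry nucleotide analogues and other drugs, differed less between the lines. ABCC5 was at 3.84, 3.69, 4.87 and 5.84 FPKM in BPH-1, at 4.19, 4.17, 3.76 and 4.79 in DU145 and at 5.87, 5.82, 6.1 and 6.86 in PC3. Its rise in PC3 over BPH-1 (0.38 ± 0.14, adjusted p = 0.0379) was lost with the GC trend removed (0.032, adjusted p = 0.857), under same-sum scaling, and on leaving out any single library but BPH-1 replicate 4 (adjusted p up to 0.102). Its rise over DU145 (0.45 ± 0.13, adjusted p = 0.0184) held with the GC trend removed (0.53, adjusted p = 0.00542) but not in the libraries closest in tilt (0.32, adjusted p = 0.0677). DU145 against BPH-1 was -0.074 (adjusted p = 0.721), and was called lower with the GC trend removed (-0.47, adjusted p = 0.0353).

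ABCC10 was at 2.15, 2.53, 2.41 and 2.84 FPKM in BPH-1, at 4.79, 3.83, 6.13 and 3.66 in DU145 and at 2.45, 2.41, 2.99 and 3.26 in PC3, and every DU145 library lay above both other lines. Its rise in DU145 over BPH-1 (0.67 ± 0.18, adjusted p = 0.00821) was lost with the GC trend removed (0.025, adjusted p = 0.878). PC3 against BPH-1 was 0.11 ± 0.12 (adjusted p = 0.438) and turned to -0.41 (adjusted p = 0.00677) with the trend removed. Its lower level in PC3 than in DU145 (-0.56 ± 0.18, adjusted p = 0.0293) was not called under upper-quartile or median-of-ratios scaling. Nor was it called without DU145 replicate 1 or 3 or PC3 replicate 1, 2 or 3 (adjusted p up to 0.0832). The call held with the GC trend removed (-0.46, adjusted p = 0.00967) and in the libraries closest in tilt (-0.47, adjusted p = 0.021). Without DU145 replicates 1 and 3 together it was lost (-0.34, adjusted p = 0.109). ABCC10 shares exons with DLK2 on the other strand, and the counting was not stated to use strand. ABCC11 had at most 22 reads in a library, shares exons with LONP2 on the other strand and was not tested.

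The sterol and phospholipid transporters were the 11 members ABCA1, ABCA2, ABCA3, ABCA5, ABCA7, ABCA12, ABCB4, ABCG1, ABCG4, ABCG5 and ABCG8. Against BPH-1, 2 rose and 3 fell of 8 tested in PC3, and 4 rose and 4 fell of 8 tested in DU145. Of all genes tested 67.6% and 62.6% were called there. ABCA12, which entered through BPH-1 alone, is among those called lower in both. Between the cancer lines, of 7 tested, 1 was higher in PC3 and 3 were higher in DU145, beside 48.2% of all genes called. ABCB4, ABCG5 and ABCG8, the canalicular phospholipid and sterol pumps of the liver, gave no read in any of the 12 libraries.

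ABCA3 moves phospholipids into lamellar bodies and lies on chromosome 16 (2275881 to 2340746, minus strand). Its FPKM was 0.11, 0.132, 0.157 and 0.319 in BPH-1, 6.81, 4.43, 8.3 and 6.55 in DU145 and 9.17, 9.97, 11.4 and 9.88 in PC3. The 3 lines did not overlap, with PC3 highest. The mean was 56.3-fold higher in PC3 than in BPH-1 (3.24 ± 0.11, adjusted p = 4.37e-08) and 36.3-fold higher in DU145 (2.65 ± 0.18, adjusted p = 2e-06). These were 2.82 ± 0.14 and 2.22 ± 0.15 with the GC trend removed. PC3 lay above DU145 (0.59 ± 0.18, adjusted p = 0.0237), also with the GC trend removed (0.66, adjusted p = 0.0074) and in the libraries closest in tilt (0.72, adjusted p = 0.0281), but not on leaving out PC3 replicate 2 or 3 (adjusted p up to 0.069).

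ABCA2, a lipid transporter of endosomes and lysosomes, lies on chromosome 9 (137007227 to 137028922, minus strand). Its FPKM was 0.501, 1.16, 0.75 and 1.13 in BPH-1, 10.8, 7.1, 12.5 and 9.4 in DU145 and 2.55, 3.27, 3.99 and 2.79 in PC3. Every DU145 library was above every PC3 library, and these were above every BPH-1 library. The mean was 11.2-fold higher in DU145 than in BPH-1 (2.53 ± 0.20, adjusted p = 5.68e-06) and 3.56-fold higher in PC3 (1.14 ± 0.16, adjusted p = 0.000165). With the GC trend removed the differences were 1.91 ± 0.17 (adjusted p = 1.69e-05) and 0.59 ± 0.17 (adjusted p = 0.0113). PC3 was 3.16-fold below DU145 (-1.39 ± 0.19, adjusted p = 0.000334), and the difference was -1.24 in the libraries closest in tilt (adjusted p = 0.00503).

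ABCA12 loads glucosylceramide for the skin barrier and lies on chromosome 2 (214931542 to 215138428, minus strand). Its FPKM was 1.62, 4.63, 1.14 and 3.81 in BPH-1, 0.00625, 0, 0 and 0 in DU145 and 0 in all 4 PC3 libraries. BPH-1 stood clear of both other lines, although its own highest library was 4.06-fold its lowest. The 1707 reads of BPH-1 against none in PC3 give a level at least 492-fold lower in PC3, and against 1 read in DU145 a ratio of 1695 (95% exact interval 304 to 66969.9, counting error only). ABCA12 was tested only because BPH-1 was high, so no p is given.

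Windows at RefSeq starts of 4 genes are shown because ABCA3 and ABCA2 rose in both cancer lines while ABCA12 and ABCG2 gave no read in PC3. RefSeq gives promoter windows of 300 bases (250 before a start and 50 after it, GRCh38.p14) for 35 of the 45 members, and for a gene with several windows the one with most CpG is printed. The starts printed for ABCA12 and ABCG2 lie 106 kb and 72.7 kb inside the gene from its outermost annotated start. Those of ABCA2 and ABCA3 lie 0.685 kb and 0.018 kb inside the gene. Which start the lines used was not tested. All 4 genes are on the minus strand, the windows read 5′ to 3′ on that strand, and capitals mark each CG dinucleotide.
ABCA3 (chr16:2340679-2340978, strand -): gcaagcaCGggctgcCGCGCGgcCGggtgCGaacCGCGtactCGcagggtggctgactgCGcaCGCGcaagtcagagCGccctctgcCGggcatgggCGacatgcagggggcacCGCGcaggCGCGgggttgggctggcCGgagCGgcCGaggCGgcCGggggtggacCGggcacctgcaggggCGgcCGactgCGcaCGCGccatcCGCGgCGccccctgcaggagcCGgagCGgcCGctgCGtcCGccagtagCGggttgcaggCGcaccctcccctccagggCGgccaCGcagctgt
ABCA2 (chr9:137028188-137028487, strand -): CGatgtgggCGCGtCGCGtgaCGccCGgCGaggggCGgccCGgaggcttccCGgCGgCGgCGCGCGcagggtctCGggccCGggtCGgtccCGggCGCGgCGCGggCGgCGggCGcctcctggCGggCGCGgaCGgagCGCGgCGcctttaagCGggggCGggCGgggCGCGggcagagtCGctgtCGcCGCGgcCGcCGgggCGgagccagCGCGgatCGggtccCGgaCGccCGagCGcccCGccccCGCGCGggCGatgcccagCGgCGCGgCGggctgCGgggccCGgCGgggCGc
ABCA12 (chr2:215032037-215032336, strand -): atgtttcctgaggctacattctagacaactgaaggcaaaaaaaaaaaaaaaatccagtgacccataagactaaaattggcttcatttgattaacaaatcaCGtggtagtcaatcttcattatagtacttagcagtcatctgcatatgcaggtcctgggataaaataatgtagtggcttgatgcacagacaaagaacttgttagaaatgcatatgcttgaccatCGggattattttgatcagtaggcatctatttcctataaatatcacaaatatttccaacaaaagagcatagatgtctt
ABCG2 (chr4:88158590-88158889, strand -): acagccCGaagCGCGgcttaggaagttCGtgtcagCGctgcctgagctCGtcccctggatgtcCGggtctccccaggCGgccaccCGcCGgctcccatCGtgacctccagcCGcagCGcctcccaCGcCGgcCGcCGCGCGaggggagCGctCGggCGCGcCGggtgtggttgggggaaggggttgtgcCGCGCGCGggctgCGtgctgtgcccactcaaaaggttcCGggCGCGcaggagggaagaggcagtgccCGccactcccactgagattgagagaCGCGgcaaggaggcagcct

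The window of ABCA3 held 42 CpG, that of ABCA2 66, that of ABCG2 35 and that of ABCA12 2, against a median of 14 over 35116 windows (quartiles 4 and 28). As many CpG as in ABCA2 or more stood in 0.0228% of all windows, as in ABCA3 in 5.85%, as in ABCG2 in 14.1% and as in ABCA12 in 89%. ABCA2 and ABCA12 each have 2 windows, and ABCG2 has 5, with 3 to 35 CpG. These shares set the richest window of a gene against all windows, which favours genes with several windows. The GC box GGGCGG, searched on both strands like the motifs named next, was found 2 times in the window of ABCA3 and 5 times in that of ABCA2 and not in the other two, and 45% of all windows hold it. The TATA motif TATAAA stood 1 time in ABCA12 and in none of the other windows shown, against 11.5% of all windows, and the CCAAT motif likewise, against 34.6%. Among the 35 members with a window, taking the richest window of each, the 19 whose highest line mean was over 1 FPKM had a median of 29 CpG (range 2 to 66). The other 16 had a median of 8.5 (range 1 to 32). ABCG2 gave no read in PC3 with a CpG-rich window, and ABCA12 was read in BPH-1 with a CpG-poor one. A letter match describes the window and does not show a binding site.

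**Figure D3:**
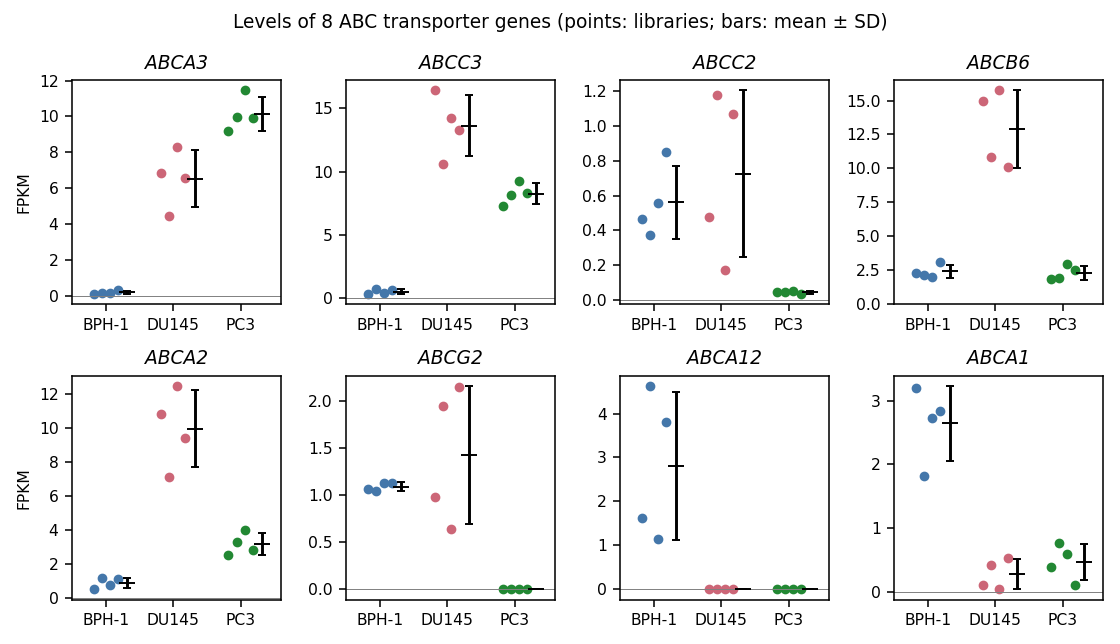
FPKM of 8 members in each library (points, in replicate order) of BPH-1, DU145 and PC3, with the mean ± SD of the 4 libraries as a black bar beside them. ABCA3 and ABCC3 are near 0 in BPH-1 and high in both cancer lines, ABCC2 is lowest in PC3, ABCB6 and ABCA2 are highest in DU145, and ABCG2 and ABCA12 are at 0 in all PC3 libraries.

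ABCA1 loads cholesterol and phospholipid onto apolipoprotein A-I, and ABCG1 passes cholesterol on to mature HDL. ABCA1 was at 3.2, 1.82, 2.73 and 2.84 FPKM in BPH-1, at 0.103, 0.426, 0.038 and 0.524 in DU145 and at 0.394, 0.757, 0.597 and 0.0969 in PC3. Both cancer lines lay below every BPH-1 library and overlapped each other. The mean was 5.73-fold lower in PC3 (-1.33 ± 0.17, adjusted p = 0.000111) and 9.7-fold lower in DU145 (-1.52 ± 0.17, adjusted p = 4.45e-05), and these differences were -1.41 and -1.57 with the GC trend removed. ABCG1 was at 1.03, 1.38, 1.14 and 2.1 FPKM in BPH-1, at 0.85, 0.312, 0.546 and 0.588 in DU145 and at 0.713, 1.34, 1.9 and 0.63 in PC3. DU145 lay below every BPH-1 library (-0.61 ± 0.16, adjusted p = 0.00702, and -0.96 with the GC trend removed), and PC3 overlapped BPH-1 (-0.19 ± 0.21, adjusted p = 0.434). PC3 against DU145 was 0.42 (adjusted p = 0.109), and was called higher with the GC trend removed (0.53, adjusted p = 0.0493).

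ABCA7, a phospholipid transporter close in sequence to ABCA1, had a mean of 2.82 ± 1.07 FPKM (SD, n = 4) in BPH-1, 6.0 ± 1.34 in DU145 and 2.73 ± 0.261 in PC3. Its rise in DU145 over BPH-1 (0.89 ± 0.23, adjusted p = 0.00686) was lost with the GC trend removed (0.18, adjusted p = 0.47), while its lower level in PC3 than in DU145 held (-0.89 as deposited, -0.90 with the GC trend removed and -0.63 in the libraries closest in tilt, adjusted p = 0.00237, 0.00155 and 0.0212). PC3 against BPH-1 was 0.0048 (adjusted p = 0.984) and turned to -0.66 (adjusted p = 0.0148) with the GC trend removed. ABCA5, a lysosomal lipid transporter with the lowest GC content of the members tested (36.1%), had 1.17 ± 0.245 FPKM in BPH-1, 0.194 ± 0.109 in PC3 and 0.175 ± 0.14 in DU145. Its differences from BPH-1 of -0.86 and -0.88, both called, shrank to -0.20 (adjusted p = 0.0486) and -0.24 (adjusted p = 0.0869) with the GC trend removed. ABCG4, a sterol transporter of the brain, was 0.375 ± 0.123 FPKM in DU145 against 0.043 ± 0.0334 in BPH-1 and 0.0871 ± 0.0206 in PC3. It was called higher in DU145 than in BPH-1. It met the read filter there through DU145, where it was high, so no p is given.

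The mitochondrial half-transporters ABCB8 and ABCB10 and the porphyrin-linked ABCB6 were tested in all 3 comparisons. ABCB6 lies on chromosome 2 (219209768 to 219218990, minus strand). Its FPKM was 2.32, 2.16, 2.03 and 3.13 in BPH-1, 15, 10.8, 15.8 and 10.1 in DU145 and 1.83, 1.96, 2.96 and 2.52 in PC3. DU145 lay above both other lines, which overlapped as deposited (-0.044 in PC3 against BPH-1, adjusted p = 0.813). With the GC trend removed PC3 was called lower than BPH-1 (-0.47, adjusted p = 0.013). The mean in DU145 was 5.35-fold that of BPH-1 (2.01 ± 0.19, adjusted p = 1.52e-05, and 1.36 ± 0.15 with the GC trend removed). It was 5.57-fold that of PC3 (PC3 less DU145 -2.06 ± 0.19, adjusted p = 2.87e-05, and -1.98 in the libraries closest in tilt). ABCB6 shares exons on the same strand with AC068946.2 in GENCODE 29, which was not analysed here, so its reads may be shared.

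ABCB10, needed for haem synthesis in red cell precursors, was 4.5 ± 0.575 FPKM in BPH-1, 1.63 ± 0.834 in DU145 and 2.3 ± 0.918 in PC3. It was lower than in BPH-1 in PC3 (-0.78 ± 0.20, adjusted p = 0.00734) and DU145 (-1.11 ± 0.24, adjusted p = 0.00232), and the differences were -0.41 and -0.65 with the GC trend removed, both called. ABCB8, a subunit of a mitochondrial potassium channel, went the other way, from 1.17 ± 0.113 FPKM in BPH-1 to 2.6 ± 0.326 in PC3 and 2.83 ± 0.759 in DU145. Its rises of 0.73 and 0.80 became 0.22 (adjusted p = 0.12) and 0.24 (adjusted p = 0.0913) with the GC trend removed.

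The peroxisomal and lysosomal half-transporters described were ABCD2, ABCD3, ABCD4 and ABCB9. ABCD3, which brings branched fatty acids and bile acid precursors into peroxisomes, moved with the GC tilt. Its FPKM was 9.75, 9.11, 10.1 and 9.1 in BPH-1, 0.464, 1.42, 0.352 and 1.21 in DU145 and 3.23, 2.93, 1.85 and 0.874 in PC3, and its GC content was 37.5%. Both cancer lines were below BPH-1, by -1.77 ± 0.24 in PC3 (adjusted p = 0.000123) and -2.54 ± 0.21 in DU145 (adjusted p = 6.94e-06). With the GC trend removed these were -0.32 ± 0.13 (adjusted p = 0.0571, no longer called) and -1.17 ± 0.12 (adjusted p = 4.19e-05). PC3 against DU145 was 0.77 ± 0.30 (adjusted p = 0.0581) as deposited, 0.70 ± 0.13 (adjusted p = 0.00115) with the GC trend removed and 0.82 (adjusted p = 0.00534) in the libraries closest in tilt. PC3 was also called higher under upper-quartile and median-of-ratios scaling and on leaving out DU145 replicate 2 or PC3 replicate 4 (adjusted p down to 0.0129).

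ABCD4, which works with LMBRD1 in releasing vitamin B12 from lysosomes, was 1.76 ± 0.219 FPKM in BPH-1, 1.9 ± 0.337 in DU145 and 1.18 ± 0.0629 in PC3. It was lower in PC3 than in BPH-1 (-0.33 ± 0.10, adjusted p = 0.0113, not called under upper-quartile scaling, and -0.67 with the GC trend removed). Its lower level in PC3 than in DU145 (-0.40 ± 0.13, adjusted p = 0.0286) was lost without DU145 replicate 1, 3 or 4 or PC3 replicate 1, 2 or 3 (adjusted p up to 0.0778), under upper-quartile and median-of-ratios scaling, and with the GC trend removed (adjusted p = 0.0795). DU145 against BPH-1 was 0.068 (adjusted p = 0.697) and turned to -0.43 (adjusted p = 0.0149) with the GC trend removed. ABCD4 shares exons on the same strand with AC005519.1, so its reads may be shared. AC005519.1 had means of 0.722 FPKM in BPH-1, 0.599 in DU145 and 0.907 in PC3.

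ABCB9, a lysosomal peptide transporter, was 0.432 ± 0.0501 FPKM in BPH-1, 0.443 ± 0.108 in DU145 and 0.59 ± 0.0923 in PC3 and passed no test as deposited (adjusted p = 0.0526, 0.924 and 0.176 for PC3 and for DU145 against BPH-1 and for PC3 against DU145). After removal of the GC trend it was called lower in DU145 than in BPH-1 (-0.26, adjusted p = 0.00479) and higher in PC3 than in DU145 (0.17, adjusted p = 0.0315). In PC3 against BPH-1 it was called higher under upper-quartile and median-of-ratios scaling, while the GC correction gave -0.12 (adjusted p = 0.105). It shares exons with ARL6IP4 and OGFOD2 on the other strand. ABCD2 had at most 3 reads in a library.

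**Figure D4:**
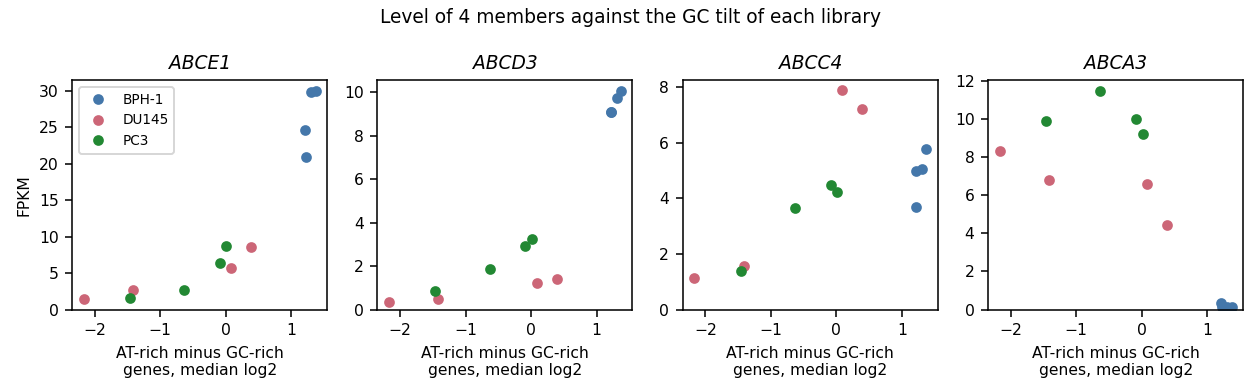
FPKM of ABCE1, ABCD3, ABCC4 and ABCA3 (vertical axes) in each library against the GC tilt of that library (median log2 level of AT-rich less GC-rich genes), coloured by line. Within DU145 and within PC3, ABCE1, ABCD3 and ABCC4 are lowest in the library with the most negative tilt, and the BPH-1 libraries stand apart at tilts of 1.22 and above.

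The proteins without membrane spans act in translation. ABCE1 splits ribosomes after termination, ABCF1 takes part in initiation, and ABCF2 and ABCF3 are its relatives. Against BPH-1, 2 of these 4 rose and 1 fell in PC3, and 1 rose and 2 fell in DU145. Beside them, 67.6% and 62.6% of all genes were called. ABCE1 was at 29.8, 21, 30 and 24.7 FPKM in BPH-1, at 2.71, 8.52, 1.49 and 5.66 in DU145 and at 8.75, 6.33, 2.64 and 1.53 in PC3. All libraries of both cancer lines lay below BPH-1, and the order of libraries within each cancer line was that of their tilt. The highest library was 5.7-fold the lowest in DU145 and 5.73-fold in PC3. The difference from BPH-1 was -2.42 ± 0.38 in PC3 (adjusted p = 0.000372) and -2.46 ± 0.37 in DU145 (adjusted p = 0.000284), and -1.08 ± 0.24 and -0.92 ± 0.17 with the GC trend removed, both called. PC3 against DU145 gave 0.041 ± 0.52 (adjusted p = 0.956). ABCE1 shares exons with OTUD4 on the other strand, which ran from 8.55 to 10.7 FPKM in BPH-1, from 0.224 to 2.78 in DU145 and from 0.846 to 3.93 in PC3. It also shares exons there with ANAPC10, which ran from 0.610 to 0.702 FPKM, 0.595 to 0.921 and 0.321 to 0.473 in the same order.

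ABCF2 was at 26.6, 23, 30.6 and 24.5 FPKM in BPH-1, at 81.3, 54.4, 86.3 and 57.2 in DU145 and at 44.5, 40.4, 38.6 and 54.9 in PC3. Both cancer lines lay above BPH-1. Its difference was 1.36 ± 0.19 in DU145 (adjusted p = 0.000181, and 0.67 ± 0.12 with the GC trend removed) and 0.74 ± 0.14 in PC3 (adjusted p = 0.000985, and 0.25 with the GC trend removed, adjusted p = 0.10). PC3 was below DU145 (-0.62 ± 0.19, adjusted p = 0.0251). That call was lost under median-of-ratios scaling and without DU145 replicate 1 or 3 or PC3 replicate 1, 2 or 3 (adjusted p up to 0.0729). It held with the GC trend removed (-0.39, adjusted p = 0.0101) and in the libraries closest in tilt (-0.39, adjusted p = 0.0241). ABCF2 shares exons on the same strand with AC021097.2, which was not analysed here.

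ABCF3 was highest in PC3, at 10.1, 9.12, 10.1 and 14.5 FPKM against 4.65, 4.27, 5.02 and 5.37 in BPH-1 and 6.23, 4.44, 7.61 and 4.47 in DU145. PC3 lay above both other lines in every library. It rose over BPH-1 by 1.02 ± 0.15 (adjusted p = 0.000217, and 0.49 with the GC trend removed, adjusted p = 0.0029) and over DU145 by 0.84 ± 0.20 (adjusted p = 0.00773, and 0.96 in the libraries closest in tilt, adjusted p = 0.00241). DU145 against BPH-1 gave 0.17 (adjusted p = 0.437) and, with the GC trend removed, -0.49 (adjusted p = 0.00585).

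ABCF1 was 36.2 ± 3.43 FPKM in BPH-1, 26.9 ± 2.43 in DU145 and 43.2 ± 8.25 in PC3. PC3 was above DU145 (0.65 ± 0.15, adjusted p = 0.00661), also with the GC trend removed (adjusted p = 0.000508) and in the libraries closest in tilt (adjusted p = 0.00673). The direction in PC3 against BPH-1 depended on the setting: it was 0.23 (adjusted p = 0.16) as deposited, was called higher under upper-quartile and median-of-ratios scaling and lower with the GC trend removed (-0.27, adjusted p = 0.0449). Its lower level in DU145 than in BPH-1 (-0.42 ± 0.14, adjusted p = 0.0267) was lost under upper-quartile scaling and without BPH-1 replicate 1 or 3 or DU145 replicate 4 (adjusted p up to 0.0785), and was -1.11 with the GC trend removed.

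Of the sulfonylurea receptors, which are subunits of potassium channels, ABCC8 gave no read in BPH-1 or DU145 and 8 over PC3. ABCC9 was at 0.187, 0.44, 0.288 and 0.21 FPKM in BPH-1, at 0, 0, 0 and 0.0119 in DU145 and at 0.0123, 0.0117, 0.00576 and 0.0123 in PC3. BPH-1 did not overlap either line. Its mean was 26.7-fold lower in PC3. The 217 reads of BPH-1 against 2 in DU145 gave a ratio of 108 (95% exact interval 29.5 to 895, counting error only). ABCC9 had 36 to 84 reads in each BPH-1 library, 0 to 2 in DU145 and 1 to 2 in PC3. It was thus tested only because BPH-1 was high, and no p is given.

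Members known for 1 tissue were mostly scarce. Of the 10 in that list, 7 were tested in no comparison. These were the retinal ABCA4, the bile salt pump ABCB11, ABCB5, ABCC12 and the chromosome 17 neighbours ABCA6, ABCA8 and ABCA9, with at most 13 reads in a library. ABCA10, in the same chromosome 17 group, was 0.248 ± 0.0754 FPKM in BPH-1, 0.0417 ± 0.0184 in PC3 and 0.0305 ± 0.0297 in DU145. It was called lower in both cancer lines, and the call in PC3 was lost with the GC trend removed. ABCA10 met the read filter through BPH-1, where it was high, so no p is given. It overlaps an exon of ABCA5. ABCA13 was 0.187 ± 0.0816 FPKM in BPH-1, 0.174 ± 0.0633 in DU145 and 0.0953 ± 0.0329 in PC3 and passed no test as deposited. It was called lower in PC3 than in DU145 with the GC trend removed (-0.12, adjusted p = 0.0164). ABCC6, the liver gene of pseudoxanthoma elasticum, was 0.126 ± 0.0485 FPKM in DU145 against 0.0184 ± 0.0182 in BPH-1 and 0.00858 ± 0.0103 in PC3. It had 12 to 31 reads in each library of DU145, 0 to 7 in those of BPH-1 and 0 to 3 in those of PC3, so it was tested only because DU145 was high, and no p is given for ABCC6. Its near-identical copies ABCC6P1 and ABCC6P2 ran from 0.235 to 0.547 and 0.426 to 0.667 FPKM in DU145, and reached at most 0.285 and 0.202 in BPH-1 and 0.0369 and 0.0596 in PC3, so reads of the gene and its copies cannot be told apart.

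The partner genes comprised 25 genes that share a route, complex or regulator with the family, and 21 were tested in each comparison. Against BPH-1, 4 rose and 11 fell in PC3 and 6 rose and 5 fell in DU145, beside 67.6% and 62.6% of all genes called. Between the cancer lines 2 were higher in PC3 and 9 lower, beside 48.2% of all genes. With the GC trend removed the counts were 3 and 9, 6 and 7, and 5 and 11. Of all genes, 22.2% were then higher and 44% lower, 25% and 37%, and 25.4% and 31.5%, in that order.

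TAP1 and TAP2, the ABC proteins that carry peptides for HLA class I, and their partner TAPBP were all lower in PC3 than in either other line. TAP1 lay between 7.83 and 11.8 FPKM in PC3, between 15.1 and 21.8 in BPH-1 and between 17.6 and 27.5 in DU145. PC3 differed from DU145 by -1.19 ± 0.20 for TAP1 (adjusted p = 0.000973), -0.78 ± 0.12 for TAP2 (adjusted p = 0.000658) and -0.92 ± 0.24 for TAPBP (adjusted p = 0.0113), and with the GC trend removed by -0.98, -0.62 and -0.86, all called. DU145 did not pass the test against BPH-1 for these 3 genes as deposited, and was called lower for each with the GC trend removed (-0.43, -0.57 and -0.70, adjusted p = 0.017, 0.00233 and 0.0236). GCLC and GCLM, the subunits of the first enzyme of glutathione synthesis, supply the co-substrate of ABCC1. Both were lower in PC3 than in DU145, by -0.92 ± 0.19 (adjusted p = 0.00364) and -1.26 ± 0.24 (adjusted p = 0.00227), and by -1.06 and -1.43 with the GC trend removed, both called.

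NR1H2, a liver X receptor that switches on ABCA1 and ABCG1, was higher in both cancer lines, at 11.2 ± 2.88 FPKM in PC3 and 6.59 ± 1.96 in DU145 against 3.52 ± 0.581 in BPH-1 (adjusted p = 7.25e-05 and 0.0119). ABCA1 was lower in both, and ABCG1 in DU145 only. NR1H3 was also higher in both (0.44 and 0.53, adjusted p = 0.000312 and 0.000364). RXRA was lower in PC3 (-0.61, adjusted p = 0.00201) and not called in DU145. A link of these receptors to ABCA1 or ABCG1 was not tested. The log2 difference of NR1H2 from BPH-1 with the GC trend removed was 0.67 in PC3 (adjusted p = 0.000963) and -0.01 in DU145 (adjusted p = 0.954, no longer called). PEX3, which inserts ABCD3 and other proteins into the peroxisomal membrane, fell in PC3 (-1.28 ± 0.29, adjusted p = 0.00353) and DU145 (-2.11 ± 0.35, adjusted p = 0.000565). The call in PC3 was lost and its sign turned with the GC trend removed (0.22, adjusted p = 0.243), and DU145 gave -0.62 (adjusted p = 0.0275). LMBRD1, the partner of ABCD4, fell in both as well (-1.47 ± 0.19, adjusted p = 0.000106, and -1.36 ± 0.35, adjusted p = 0.00635), and both calls were lost and both signs turned with the GC trend removed (0.089 and 0.32, adjusted p = 0.715 and 0.151). The chloride channel CFTR and the xenobiotic receptors NR1I2 and NR1I3, known to raise ABCB1, reached at most 0.0401 FPKM in any library and were not tested.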

How the data were processed

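Total RNA was extracted with TRIzol and sequenced from 4 libraries each of BPH-1, DU145 and PC3, with depths of 12950664 to 16309559 reads. The submitters' processing notes name CASAVA 1.8, HISAT2 2.1.0 and edgeR, and the build is GRCh38. The counter and its use of strand are not given in the sources used here. The deposited values are FPKM per gene. No source names this unit, and it was inferred from the steps between low values, which scale with gene length and library depth. They were not counts, so the test was limma-trend on log2(FPKM + 1).

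Reads were recovered from FPKM, GENCODE 29 exon lengths and depth, and 11 members' lengths were taken from the steps. Genes entered with at least 10 reads at median depth in 4 libraries and 15 reads in all. Each pair of lines was fitted alone in R 4.3.3 with limma 3.58.1, two-sided, at an adjusted p of 0.05. The scripts were tested on simulated data. Without a GC trend, 8 to 15 unchanged genes were called. With a trend of fixed size put into 1 line, 9000 to 9692 unchanged genes were called, of 16385 to 17193 genes tested. With that trend removed, 13 to 18 were called. How many of the calls as deposited are of this kind was not tested.

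The GC correction removed, in each library, a natural spline (5 df) of log2 level on GC content. Single values used exact permutation tests (scipy 1.17.1, 70 permutations). Alternatives were other filters, a pseudocount of 0.1, same-sum, upper-quartile and median-of-ratios scaling, voom on recovered reads, a replicate block, 1 fit over all lines and leaving out each library. After the data were seen, 3 settings that left out libraries by GC tilt were added.

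Given with every library were members with an absolute log2 difference of at least 1 past the threshold, at most 10 a comparison, and the exporters ABCB1, ABCC1 to ABCC5, ABCC10, ABCG2, ABCA1 and ABCG1. ABCC9, which falls outside that rule, was added after its values were seen. The members and lists were chosen with earlier results of these data known. Promoters came from RefSeq. Results of 2 members are not reported here, although counts over the family include them.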

Additional observations from a re-analysis of the deposited data

Results flagged for a closer look

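In 4 of the 83 groups of 4 libraries tested, 1 library lay far from the other 3, and chance gives about 5% of groups. ABCA13 was at 0.309 FPKM in BPH-1 replicate 2 against 0.136 to 0.160 in the others. ABCB9 was at 0.357 FPKM in BPH-1 replicate 2 against 0.450 to 0.467, and at 0.728 FPKM in PC3 replicate 4 against 0.538 to 0.556. ABCD4 was at 1.28 FPKM in PC3 replicate 4 against 1.14 to 1.16. PC3 replicate 4 had the most negative GC tilt of its line, and the part of the tilt in these values was not tested.

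Of the 28 members tested, 18 had a difference from BPH-1 that was not the same in PC3 and DU145, by the test of PC3 against DU145 itself, beside 48.2% of all genes tested, and 16 of them are given here. The difference of PC3 less that of DU145, on the log2(FPKM + 1) scale, was above 0 for ABCF3 (0.84), ABCF1 (0.65), ABCA3 (0.58) and ABCC5 (0.45). It was below 0 for ABCB6 (-2.06), ABCA2 (-1.39), ABCG2 (-1.23), ABCA7 (-0.89), ABCC2 (-0.68), ABCC3 (-0.65), ABCF2 (-0.62), ABCC10 (-0.56), ABCC1 (-0.41), ABCD4 (-0.40), ABCG4 (-0.34) and ABCC6 (-0.16). ABCC2, ABCC6 and ABCG2 had enough reads for this test in DU145 alone, so their calls were fixed by the filter. ABCG4, with 31 to 61 reads per DU145 library and 8 to 14 in PC3, met the filter through DU145, so its call was favoured by the filter. Of the other members, all but ABCC1 and ABCD4 were also called with the GC trend removed. The calls of ABCA3, ABCC1, ABCC10, ABCD4 and ABCF2 were lost on leaving out certain single libraries. Those of ABCC5, ABCD4 and ABCG4 were lost in the libraries closest in tilt.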

How the results depend on the processing

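Over the alternatives, 836 of 907 values of single members kept their direction and their side of the threshold, 40 lost the call, 13 gained one and 18 changed sign. Of 180 counts of calls, 176 stayed within 1.5 times. The stricter filter gave 7 members lower in PC3 and 6 lower in DU145 against BPH-1, since fewer genes were tested. The GC correction gave 5 members higher in PC3 against BPH-1, with or without the replicate block, and the cause was not tested. Same-sum scaling moved the median of all genes from -0.13 to -0.28 in PC3 and from -0.026 to -0.16 in DU145 against BPH-1.

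Signs turned as follows for the members and comparisons followed under every alternative. In PC3 against BPH-1, ABCC10 gave -0.085 under same-sum scaling and -0.41 with the GC correction, with or without the replicate block, and ABCC1 gave 0.002 under upper-quartile scaling. In DU145 against BPH-1, ABCC5 gave 0.019 under upper-quartile scaling and ran from -0.151 to 0.031 over the settings that left out 1 library (0.031 without BPH-1 replicate 4), ABCC2 ran from -0.019 without DU145 replicate 2 to 0.279, ABCC1 gave -0.49 and ABCC4 0.015 with the GC correction, with or without the replicate block, and ABCC4 gave 0.554 without DU145 replicates 1 and 3. In PC3 against DU145, ABCC4 gave 0.005 under median-of-ratios scaling, 0.003 with voom, and ran from -0.441 to 0.248 over the settings that left out 1 library, above 0 without DU145 replicate 2 or 4 or PC3 replicate 4, and ABCA1 gave -0.034 without DU145 replicates 1 and 3. Elsewhere the GC correction turned the sign of differences that were not called as deposited. It gave -0.66 for ABCA7, -0.12 for ABCB9 and -0.27 for ABCF1 in PC3 against BPH-1, 0.067 for ABCA13, -0.26 for ABCB9, -0.43 for ABCD4 and -0.49 for ABCF3 in DU145 against BPH-1, and -0.11 for ABCE1 in PC3 against DU145. The cause was not tested.

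Replicate numbers did not pair the libraries (correlations of deviations from -0.65 to 0.51). With the replicate block 10711, 10156 and 6654 genes were called in the 3 comparisons, and members split 8 higher and 12 lower, 10 and 11, and 5 and 8. Under the block ABCF1 in DU145 against BPH-1 and ABCC1, ABCC5, ABCC10, ABCD4 and ABCF2 in PC3 against DU145 were not called. Depth limits what can be said of members with few reads: 13 had means under 0.1 FPKM in all lines.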
